A study of Mus musculus with 6 samples.

Results

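The transcripts described here come from the mouse mitochondrial genome, and the members are all rows of the gene table whose chromosome is given as MT, which makes 37 of 55703 genes. They comprise 13 mRNAs, 2 rRNAs and 22 tRNAs, of which 28 are annotated on the plus strand and 9 on the minus strand. Levels were measured by RNA-seq of interscapular brown adipose tissue (iBAT) of C57BL/6 mice aged 8 weeks, in 3 libraries labelled Wtap-BKO (Wtap flox/flox with 1 copy of Ucp1-iCre) and 3 libraries labelled Wtap flox/flox without the Cre. Both groups therefore carry the floxed Wtap alleles, in which exon 4 lies between loxP sites, and only the Wtap-BKO mice also carry the Cre, which is expressed from the Ucp1 gene itself through an IRES. Wtap encodes an adaptor of the m6A RNA methyltransferase, and the design asks how RNA levels in brown fat differ when it is deleted in cells that express Ucp1. Other cells of the fat pad keep the gene, the study calls the libraries of a group biological replicates, and the Cre-free controls do not carry the change at the Ucp1 locus.

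Mitochondrial DNA is a small circular molecule present in many copies per cell. Both of its strands are transcribed from promoters in a non-coding control region into long precursors, and tRNAs lie between most of the other genes, so that cutting out the tRNAs at their 5′ and 3′ ends frees the mRNAs and rRNAs. The 13 mRNAs encode core subunits of respiratory complexes I, III and IV and of ATP synthase (complex V), while the other subunits, and every protein that transcribes, cuts or translates mitochondrial RNA, are made from nuclear genes. Brown adipocytes are packed with mitochondria because they burn fuel for heat.

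The genes leave few bases between them, and several share bases, which bears on how reads are assigned. The sequences below were taken from the GENCODE M21 transcripts (GRCm38), in which all 37 members had the same start, end and strand as in the deposited table. The longest overlap between members joins mt-Atp8 and mt-Atp6, 2 ATP synthase subunits, at MT:7927-7969 on the plus strand, where the last 43 bases of mt-Atp8 are also the first 43 of mt-Atp6.
mt-Atp8 and mt-Atp6 shared bases: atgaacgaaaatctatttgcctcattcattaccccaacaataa
A further 7 bases are shared by mt-Nd4l and mt-Nd4, and 14 bases are shared by mt-Nd5 and mt-Nd6, which lie on opposite strands. The annotated mRNA ends also show how closely transcript cutting and tailing are tied in this genome. In mt-Co3, mt-Nd4 and mt-Cytb the annotated gene ends in a lone T (in capitals), the first base of a stop codon that is completed only by the poly(A) tail added after cutting, whereas the other 10 mRNAs hold a whole stop codon. The last 24 bases of these 3 mRNAs read as follows.
mt-Co3: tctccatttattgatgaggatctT
mt-Nd4: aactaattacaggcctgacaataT
mt-Cytb: acaaaatactaaaattatatccaT
Of these ends, mt-Co3 and mt-Cytb are followed directly by a tRNA gene, mt-Tg and mt-Tt, and mt-Nd4 lies 1 base before mt-Th.

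A stretch of mitochondrial DNA has a near-identical copy in the nuclear genome, which also bears on the read counts. Among annotated transcripts, 7 pseudogenes lie in a row on the minus strand of chromosome 1, chr1:24611535-24616197 (GRCm38), and match MT:6390-11042 in the same order. The spacing between them equals that between the matched stretches of mitochondrial DNA, except for 1 gap that is a base longer. They match mt-Co2, mt-Atp6, mt-Co3, mt-Nd4l and mt-Nd4 at 100% of the aligned bases, and mt-Nd3 (99.7%) and mt-Co1 (99.8%) at all bases but 1. The match covers nearly the whole of mt-Co2, mt-Atp6, mt-Co3, mt-Nd3 and mt-Nd4l, but 876 of 1378 bases of mt-Nd4 and 483 of 1545 bases of mt-Co1. The 2 bases that tell copy from member are in capitals below. They are T3C in mt-Nd3 and A1066T in mt-Co1, with the mitochondrial base first and positions counted from 1 at the first base of the mitochondrial gene.
mt-Nd3, bases 1 to 15: atTaacctgtacact
Gm28438, the copy of mt-Nd3: atCaacctgtacact
mt-Co1, bases 1054 to 1078: ggtctaaccggaAttgttttatcca
Gm29216, the copy of mt-Co1: ggtctaaccggaTttgttttatcca

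The libraries held between 15979694 and 19005123 assigned reads. Whole-gene Wtap was at 11.8, 12.3 and 12.7 FPKM (fragments per kilobase and sequencing depth) in the libraries labelled Wtap-BKO, against 8.00, 8.63 and 8.16 FPKM in those labelled flox/flox, which is no check of a deletion of exon 4 alone, so Wtap-BKO below means the libraries labelled so. All 10 brown adipocyte markers were detected in every library, and their summed level was 3381 to 4624 FPKM in Wtap-BKO against 6409 to 8612 FPKM in flox/flox libraries, with 3 of 10 lower by the test (Cox7a1, Ppara and Ucp1, whose locus carries the Cre) and 0 higher. The list did not move as one, since 2 of its 10 genes were fitted above 0, Elovl3 (log2 change 3.27, adjusted p = 0.0516) and Prdm16 (0.49, adjusted p = 0.130). Of 6 general adipocyte markers, 1 was higher (Adipoq) and 0 lower, with a median log2 change of 0.33. Skeletal muscle markers summed to 1661 FPKM in Wtap-BKO replicate 3 and 1014 FPKM in flox/flox replicate 2, against 32.2 to 49.8 FPKM in the other libraries. Summed macrophage markers were 250 to 379 FPKM in Wtap-BKO against 166 to 249 FPKM in flox/flox libraries (3 of 10 higher, C1qc, Csf1r and Mrc1), and fibroblast markers 211 to 338 against 161 to 193 FPKM (1 of 7 higher, Dpt), with no marker of either list at 0. Over all tested genes, 3.88% were lower and 6.10% higher by the same test, so 1 call in a short list says little. The part of these marker shifts in the results below was not tested.

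Mitochondrial transcripts were lower in the Wtap-BKO libraries. Of the 37 members, 30 passed the filter on low values (a mean of at least 0.5 FPKM and of at least 10 reads per library). Of these 30, 12 were lower (7 mRNAs, 0 rRNAs and 5 tRNAs) and 0 were higher at an adjusted p under 0.05 by limma, which is 40.0% of the tested members, against 3.88% of all 13507 tested genes lower and 6.10% higher. At an unadjusted p under 0.05, 23 of 30 were lower and 0 higher, against 13.2% of all tested genes lower and 15.7% higher. By voom 14 were lower and 0 higher, against 4.35% of all tested genes lower and 6.34% higher. The fitted change was below 0 for all 30, as for 50.4% of all tested genes, and the median log2 change was -0.92 over the members and -0.00380 over all tested genes. All 3 Wtap-BKO libraries lay below all 3 flox/flox libraries for 20 of the 30 members (66.7%), against 16.9% of all tested genes. In bulk tissue, fewer cells of a type and less RNA per cell cannot be told apart.

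Fewer members were called with any library left out. Leaving out a Wtap-BKO library left 5 (replicate 1), 5 (replicate 2) or 3 (replicate 3) members called, and leaving out a flox/flox library left 3 (replicate 1), 1 (replicate 2) or 2 (replicate 3). Calls over all genes fell too, from 1348 with all libraries. They were 1277, 753 and 483 without a Wtap-BKO library and 307, 342 and 534 without a flox/flox library, in the same order. Without both libraries with muscle markers, 0 members passed at 2 against 2 libraries, as did 0 of all genes, while 19 members and 2253 genes had an unadjusted p under 0.05 in limma, all 30 fitted changes stayed below 0 and their median was -1.06. In the other direction, mt-Co1, mt-Nd1, mt-Nd2 and mt-Tp, which missed the threshold, passed it with a robust variance, with a stricter filter and with voom. Of the 12 called members, mt-Tm and mt-Atp8 were not called by voom, and mt-Nd6, mt-Tl1 and mt-Atp8 were not called after scaling to library size.

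**Figure D1:**
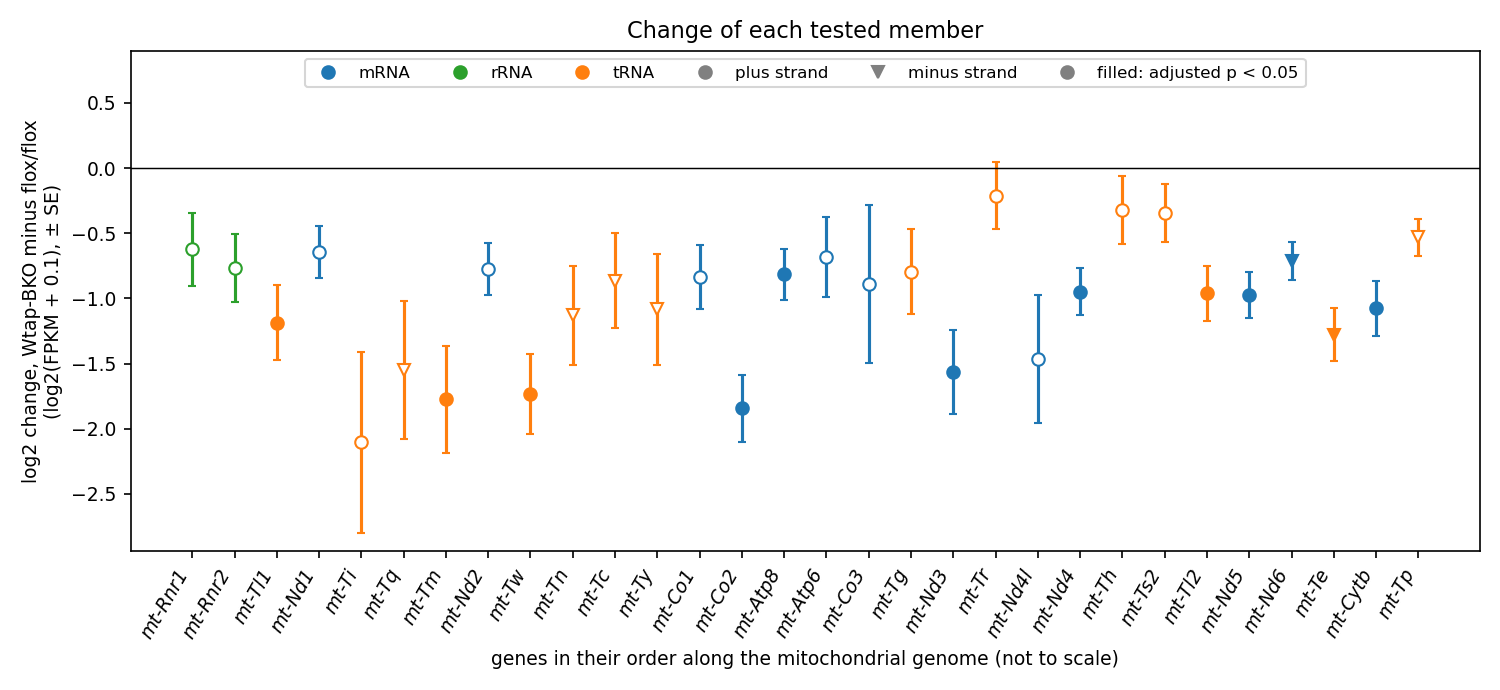
Log2 change of each of the 30 tested members, Wtap-BKO minus flox/flox, on the log2(FPKM + 0.1) scale with its SE (3 libraries per group), in gene order along the mitochondrial genome. Circles are plus-strand and triangles minus-strand genes, filled where the adjusted p was under 0.05. All points lie below 0, between -0.21 (mt-Tr) and -2.10 (mt-Ti).

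By strand, 10 of 23 tested plus-strand genes (43.5%) and 2 of 7 tested minus-strand genes (28.6%) were lower. Of all tested genes, 3.88% were lower. The median log2 change was -0.89 on the plus strand and -1.08 on the minus strand, and the difference between strands was not tested. The minus strand holds mt-Nd6 and 8 tRNAs, of which mt-Nd6 and mt-Te passed the test. The sources used here do not say if the deposited counting used strand, so reads of overlapping or antisense genes may not be told apart.

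Of the 7 complex I mRNAs, 4 were lower, against 3.88% of all tested genes. All 7 had every Wtap-BKO library below every flox/flox library, against 16.9% of all tested genes. Complex I takes electrons from NADH, and the mitochondrial subunits form its membrane arm, where protons are pumped. mt-Nd5 had 3238, 3986 and 4015 FPKM in the Wtap-BKO libraries, against 7029, 6797 and 8233 FPKM in the flox/flox libraries. The groups stood well apart, with a log2 change of -0.97 ± 0.18 (SE, limma adjusted p = 0.0215). mt-Nd4 had 5579, 5747 and 5295 FPKM in Wtap-BKO, against 9957, 9868 and 12444 FPKM in flox/flox libraries. Its log2 change of -0.95 ± 0.18 (adjusted p = 0.0246) was close to that of mt-Nd5, its neighbour beyond 3 tRNA genes.

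mt-Nd3 had 137, 150 and 233 FPKM in Wtap-BKO, against 362, 434 and 787 FPKM in flox/flox libraries, and differed by -1.56 ± 0.32 on the log2 scale (adjusted p = 0.0306). Its flox/flox libraries were widely spread, but the lowest of them was above the highest Wtap-BKO library. mt-Nd6, the only mRNA on the minus strand, had 2898, 2763 and 2981 FPKM in Wtap-BKO, against 4393, 4594 and 5185 FPKM in flox/flox libraries. The Wtap-BKO values of mt-Nd6 lay close together, and it fell by 0.71 on the log2 scale (SE 0.15, adjusted p = 0.0304). Of these 4, mt-Nd5 passed in 2, mt-Nd4 and mt-Nd3 in 1 each and mt-Nd6 in 0 of the 6 fits that left out a library.

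The other 3 complex I mRNAs did not pass. mt-Nd1 had 12971, 14547 and 12463 FPKM in Wtap-BKO, against 20817, 19311 and 22213 FPKM in flox/flox libraries (log2 change -0.64 ± 0.20, adjusted p = 0.0878). mt-Nd2 had 10092, 12291 and 10341 FPKM in Wtap-BKO, against 17932, 17394 and 20602 FPKM in flox/flox libraries (log2 change -0.77 ± 0.20, adjusted p = 0.0568). For both, the groups did not overlap. mt-Nd4l, which shares its last 7 bases with the start of mt-Nd4, had 132, 483 and 318 FPKM in Wtap-BKO, against 875, 489 and 994 FPKM in flox/flox libraries, so the highest Wtap-BKO and lowest flox/flox values nearly met (log2 change -1.46 ± 0.49, adjusted p = 0.105).

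mt-Cytb encodes cytochrome b, the only mitochondrial subunit of complex III, and had the second highest FPKM of the mitochondrial mRNAs in both groups. Reads of mRNAs with a nuclear copy may be undercounted, so this order holds for counted reads only. mt-Cytb had 14283, 16525 and 15223 FPKM in Wtap-BKO, against 31515, 30512 and 34851 FPKM in flox/flox libraries. Each Wtap-BKO library was far below each flox/flox library, with a 2.10-fold lower mean and a log2 change of -1.07 ± 0.21 (adjusted p = 0.0263). The call held in 1 of the 6 fits that left out a library, and in the others the adjusted p reached 0.116.

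Of the 3 complex IV mRNAs, which encode the catalytic core of cytochrome c oxidase, only mt-Co2 passed the test. mt-Co2 had 364, 489 and 310 FPKM in Wtap-BKO, against 1828, 1012 and 1375 FPKM in flox/flox libraries. This was 3.62-fold lower on the means, with no overlap, and gave a log2 change of -1.84 ± 0.26 (adjusted p = 0.0107). It was the only member that passed in all 6 fits that left out a library, with adjusted p of at most 0.0414. However, 681 of its 684 bases match the nuclear copy Gm28661 fully. How reads that match both places were counted is not given, so its level is uncertain.

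mt-Co1, the mitochondrial mRNA with the highest FPKM, had 30144, 31753 and 30771 FPKM in Wtap-BKO, against 53646, 49462 and 63185 FPKM in flox/flox libraries. The means were 30889 ± 811 and 55431 ± 7033 FPKM (SD, n = 3 each), 1.79-fold lower in Wtap-BKO with no overlap, yet the adjusted p was 0.0770 (log2 change -0.84 ± 0.25). mt-Co3 had 295, 115 and 650 FPKM in Wtap-BKO, against 537, 750 and 348 FPKM in flox/flox libraries. Its groups overlapped and its error was the largest of the mRNAs (log2 change -0.89 ± 0.61, adjusted p = 0.379).

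Of the 2 mRNAs of ATP synthase, whose mitochondrial subunits help form its membrane part, mt-Atp8 was lower. It had 26.3, 28.4 and 19.9 FPKM in Wtap-BKO, against 39.0, 37.6 and 55.6 FPKM in flox/flox libraries (log2 change -0.82 ± 0.20, adjusted p = 0.0459). The groups did not overlap, but this was the lowest mRNA by far, with 76 to 179 reads per library, and it passed in 0 of the 6 fits that left out a library. mt-Atp6 had 998, 814 and 1495 FPKM in Wtap-BKO, against 1195, 1816 and 2317 FPKM in flox/flox libraries. Here the groups overlapped, because Wtap-BKO replicate 3 was above flox/flox replicate 1 (log2 change -0.68 ± 0.31, adjusted p = 0.197).

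**Figure D2:**
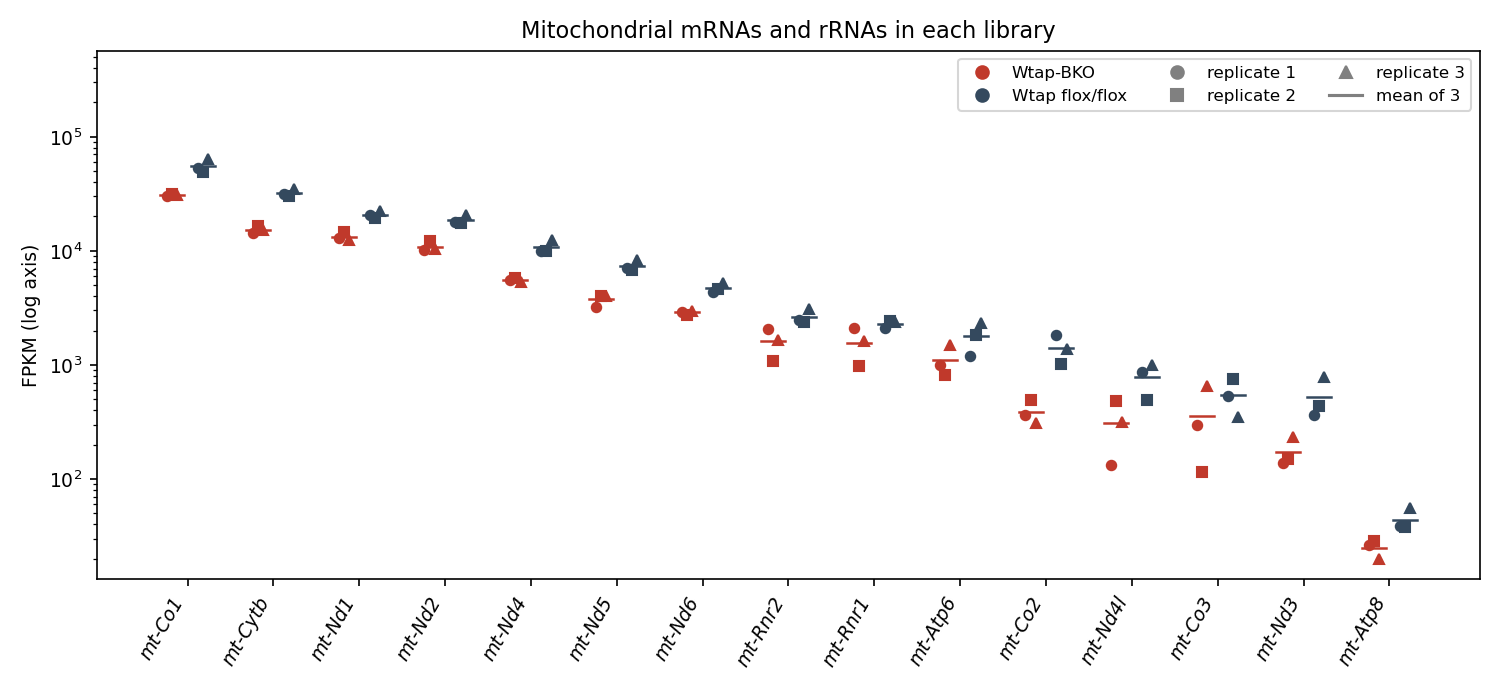
FPKM of the 13 mitochondrial mRNAs and 2 rRNAs in each library on a log axis, Wtap-BKO (red, left) and flox/flox (dark, right), ordered by the flox/flox mean. Symbols mark replicates and lines the mean of 3. Levels run over about 3 powers of 10, from mt-Co1 to mt-Atp8, and the order of the first 11 genes was the same in both groups.

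The 2 rRNAs of the mitochondrial ribosome did not pass in limma or voom, and 1 of them, mt-Rnr2, had an unadjusted p under 0.05. mt-Rnr1, the small-subunit rRNA, had 2108, 972 and 1632 FPKM in Wtap-BKO, against 2098, 2441 and 2375 FPKM in flox/flox libraries (log2 change -0.62 ± 0.28, adjusted p = 0.196). mt-Rnr2, the large-subunit rRNA, had 2074, 1078 and 1662 FPKM in Wtap-BKO, against 2467, 2385 and 3105 FPKM in flox/flox libraries (log2 change -0.77 ± 0.26, adjusted p = 0.106). The groups overlapped for mt-Rnr1 and not for mt-Rnr2. In both, Wtap-BKO replicate 1 was the highest and replicate 2 the lowest of its group, a spread of SD 570 FPKM for mt-Rnr1 that exceeded the 182 FPKM among flox/flox libraries. Reads of rRNA also depend on how rRNA was removed or poly(A) RNA selected during library preparation, which is not given for these libraries.

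Of the 22 tRNAs, 15 passed the filter and 5 of these (33.3%) were lower, against 3.88% of all tested genes. The 5 were mt-Te, mt-Tl2, mt-Tl1, mt-Tw and mt-Tm. The tRNA genes are 59 to 75 bases long, shorter than the sequenced reads. Reads of a mature tRNA and of a longer precursor that still holds it therefore cannot be told apart. The sequences of the 3 called tRNAs whose anticodon was found by rule, and of mt-Tp, which had the most reads of any tRNA, are given with the anticodon in capitals. The anticodon was searched for as its 3 letters, with T before and A or G after it, within a loop closed by paired bases, and was located at a single place in 19 of 22 tRNAs.
mt-Te, tRNA for glutamate, minus strand, MT:14071-14139: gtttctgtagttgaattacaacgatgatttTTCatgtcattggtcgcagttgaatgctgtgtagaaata
mt-Tl2, tRNA for leucine, plus strand, MT:11671-11741: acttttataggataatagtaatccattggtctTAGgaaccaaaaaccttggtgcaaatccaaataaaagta
mt-Tl1, tRNA for leucine, plus strand, MT:2676-2750: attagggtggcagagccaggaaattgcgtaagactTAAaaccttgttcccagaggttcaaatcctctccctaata
mt-Tp, tRNA for proline, minus strand, MT:15356-15422: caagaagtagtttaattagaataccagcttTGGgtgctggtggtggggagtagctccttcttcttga
The tRNAs mt-Tl1 and mt-Tl2 both carry leucine but read different codons, and each lies directly before a complex I gene, mt-Nd1 and mt-Nd5.

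mt-Te had 388, 233 and 319 FPKM in Wtap-BKO, against 726, 666 and 850 FPKM in flox/flox libraries. The groups stood apart, with a log2 change of -1.28 ± 0.20 (adjusted p = 0.0151). mt-Tl2 had 280, 317 and 365 FPKM in Wtap-BKO, against 464, 660 and 781 FPKM in flox/flox libraries (log2 change -0.96 ± 0.21, adjusted p = 0.0348). mt-Tl1 had 207, 101 and 149 FPKM in Wtap-BKO, against 299, 279 and 442 FPKM in flox/flox libraries (log2 change -1.19 ± 0.29, adjusted p = 0.0467). For neither leucine tRNA did the groups overlap, and in both flox/flox replicate 3 was the highest.

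mt-Tw, the tRNA for tryptophan, had 42.4, 31.1 and 26.3 FPKM in Wtap-BKO, against 79.1, 94.4 and 171 FPKM in flox/flox libraries (log2 change -1.73 ± 0.31, adjusted p = 0.0209). mt-Tm, the tRNA for methionine, had 9.90, 20.1 and 20.9 FPKM in Wtap-BKO, against 37.6, 47.2 and 95.5 FPKM in flox/flox libraries (log2 change -1.77 ± 0.41, adjusted p = 0.0416). These 2 tRNAs flank mt-Nd2 on either side, and neither had overlapping groups. Their values rest on few reads, with 13 to 104 per library for mt-Tm. When a library was left out, mt-Tw and mt-Te passed in 3 of 6 fits each, mt-Tl1 and mt-Tl2 in 1 each and mt-Tm in 0.

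Of the 10 tested tRNAs that did not pass, mt-Tp came closest. It had 3067, 2997 and 3361 FPKM in Wtap-BKO, against 4695, 4423 and 4490 FPKM in flox/flox libraries (log2 change -0.53 ± 0.14, adjusted p = 0.0605), with tight groups that did not overlap. mt-Tp made up 35.5% to 59.9% of all tRNA reads. It is the last gene before the control region, and mt-Tf, the tRNA for phenylalanine at the other border of that region, had 0 reads in every library.

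The minus-strand tRNAs mt-Tn, mt-Tc and mt-Ty, for asparagine, cysteine and tyrosine, lie next to each other between mt-Nd2 and mt-Co1, and they shared a pattern over the libraries. mt-Tc had 1508, 609 and 997 FPKM in Wtap-BKO, against 1507, 1434 and 2549 FPKM in flox/flox libraries (log2 change -0.86 ± 0.37, adjusted p = 0.175). mt-Tn had 737, 321 and 561 FPKM in Wtap-BKO, against 899, 873 and 1761 FPKM in flox/flox libraries (log2 change -1.13 ± 0.38, adjusted p = 0.107). mt-Ty had 457, 162 and 280 FPKM in Wtap-BKO, against 494, 431 and 926 FPKM in flox/flox libraries (log2 change -1.08 ± 0.43, adjusted p = 0.150). In all 3 tRNAs, Wtap-BKO replicate 2 was the lowest of the 6 libraries and flox/flox replicate 3 the highest. The same held for mt-Tl1, mt-Te, mt-Ti and mt-Rnr2, which lie elsewhere, so the pattern was not particular to these neighbours. Of the 15 tested tRNAs, Wtap-BKO replicate 2 was the lowest of its group for 9. In flox/flox, replicate 3 was the highest of its group for 12.

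The remaining 6 tested tRNAs had low and scattered values. mt-Ti, for isoleucine, had 9.90, 2.52 and 18.6 FPKM in Wtap-BKO, against 28.0, 24.9 and 55.1 FPKM in flox/flox libraries, with as few as 3 reads in a library (log2 change -2.10 ± 0.69, adjusted p = 0.101). mt-Tq, for glutamine, had 5.18, 5.71 and 15.8 FPKM in Wtap-BKO, against 14.8, 19.0 and 42.8 FPKM in flox/flox libraries (log2 change -1.55 ± 0.53, adjusted p = 0.109). The groups of mt-Ti did not overlap and those of mt-Tq did. mt-Tg, mt-Th, mt-Ts2 and mt-Tr, for glycine, histidine, serine and arginine, had overlapping groups and log2 changes of -0.79, -0.32, -0.34 and -0.21 (adjusted p = 0.166, 0.457, 0.353 and 0.632). Of all tested members these last 3 had the changes nearest to 0, and mt-Tr was the only one whose sign turned in a fit that left out a library, at 0.00461 without flox/flox replicate 3.

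The 7 tRNAs that were not tested had almost no reads. mt-Tf, mt-Ts1 and mt-Td had 0 reads in all 6 libraries, which allows up to 3 reads in each for counting error alone. mt-Tt had 1 read in all, in Wtap-BKO replicate 2, and mt-Tv and mt-Tk had at most 4 in a library. mt-Ta had 1, 2 and 2 reads in Wtap-BKO, against 8, 7 and 28 reads in flox/flox libraries. Its groups did not overlap, though it was too low for the filter.

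**Figure D3:**
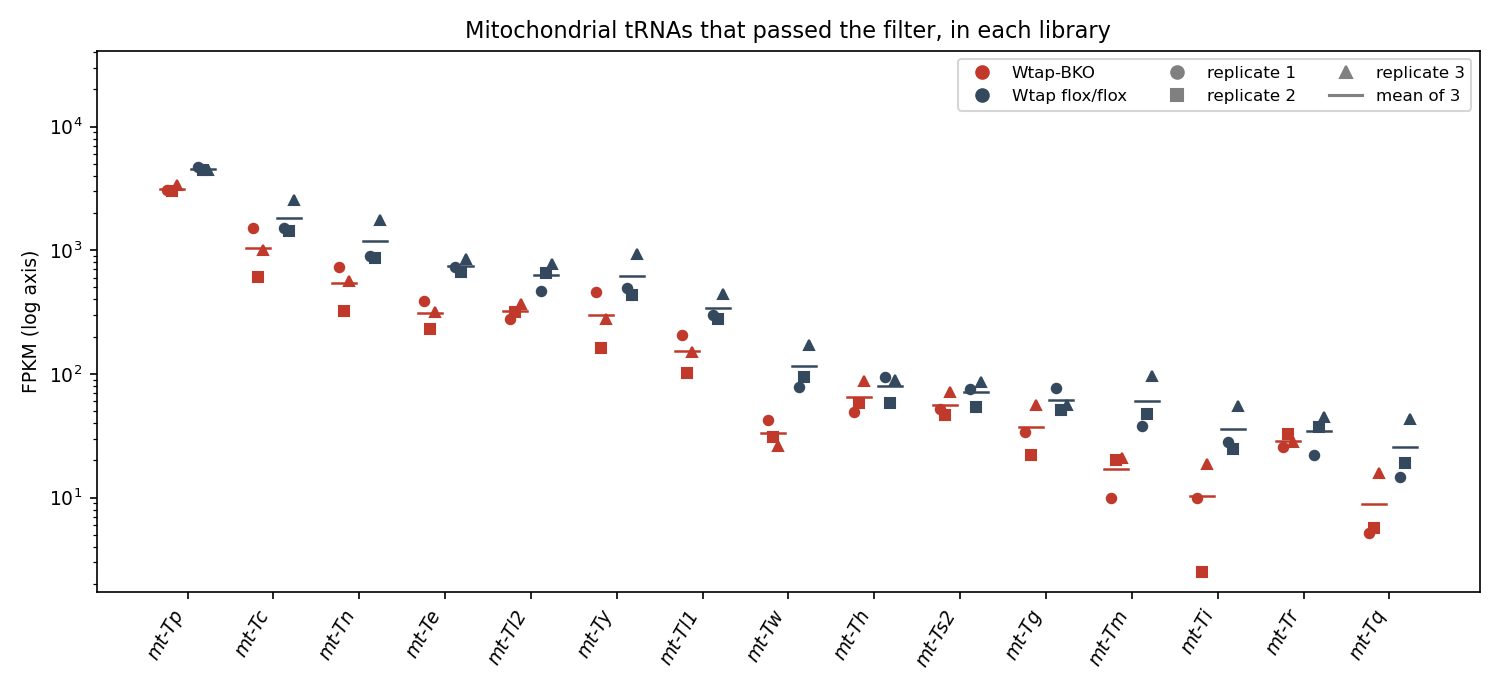
FPKM of the 15 tested mitochondrial tRNAs in each library on a log axis, Wtap-BKO (red, left) and flox/flox (dark, right), ordered by the flox/flox mean. Symbols mark replicates and lines the mean of 3. mt-Tp is highest in both groups, and flox/flox replicate 3 is the highest of its group for 12 of the 15.

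Replicates of a group differed over many members at once. Among flox/flox libraries, replicate 3 was the highest for 24 of the 30 tested members and replicate 2, which holds muscle markers, was the lowest for 20. Among Wtap-BKO libraries there was less of an order, since replicate 2 was the lowest for 14 members and the highest for 9. For the mRNAs alone, Wtap-BKO replicate 2 was the highest of its group for 8 of 13, whereas for the tRNAs it was the lowest for 9 of 15.

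As a share of all assigned reads, the 37 members took 12.2%, 11.0% and 11.3% in the Wtap-BKO libraries, against 18.7%, 18.3% and 22.4% in the flox/flox libraries. The means were 11.5% ± 0.633 and 19.8% ± 2.24 (SD, n = 3 each), 1.72-fold lower in Wtap-BKO, and the groups did not overlap. mRNAs took 11.0% of all reads on average in Wtap-BKO against 19.1% in flox/flox libraries. tRNAs took 0.0429% against 0.0689%, also without overlap. rRNAs took 0.427% in Wtap-BKO against 0.625% in flox/flox libraries, and here Wtap-BKO replicate 1, at 0.60%, exceeded flox/flox replicate 1, at 0.563%. The libraries with muscle markers had 11.3% in Wtap-BKO, between the other 2 of the group, and 18.3% in flox/flox, the lowest of the group.

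By class, the make-up of the mitochondrial reads did not separate the groups. mRNAs made up 94.7% to 97.4% of them in Wtap-BKO against 96.4% to 96.7% in flox/flox libraries. rRNAs made up 4.91%, 2.28% and 3.80% in Wtap-BKO, against 3.02%, 3.29% and 3.17% in flox/flox libraries. The rRNA share was thus both highest and lowest in Wtap-BKO libraries, and the groups overlapped. Minus-strand genes gave 1.67% of mitochondrial reads in Wtap-BKO and 1.51% in flox/flox libraries, with overlap. mt-Co1 alone gave 42.9% ± 0.360 in Wtap-BKO and 42.2% ± 1.0 in flox/flox libraries (SD, n = 3 each). mt-Cytb gave 15.8% ± 0.619 in Wtap-BKO and 18.3% ± 0.602 in flox/flox libraries, a difference larger than the spread in either group. mt-Co2 gave 0.231%, 0.290% and 0.192% in Wtap-BKO, against 0.639%, 0.373% and 0.415% in flox/flox libraries, 2.0-fold lower on the means without overlap. mt-Tp gave 0.190%, 0.174% and 0.204% in Wtap-BKO, against 0.161%, 0.160% and 0.133% in flox/flox libraries, so its share was higher in every Wtap-BKO library.

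**Figure D4:**
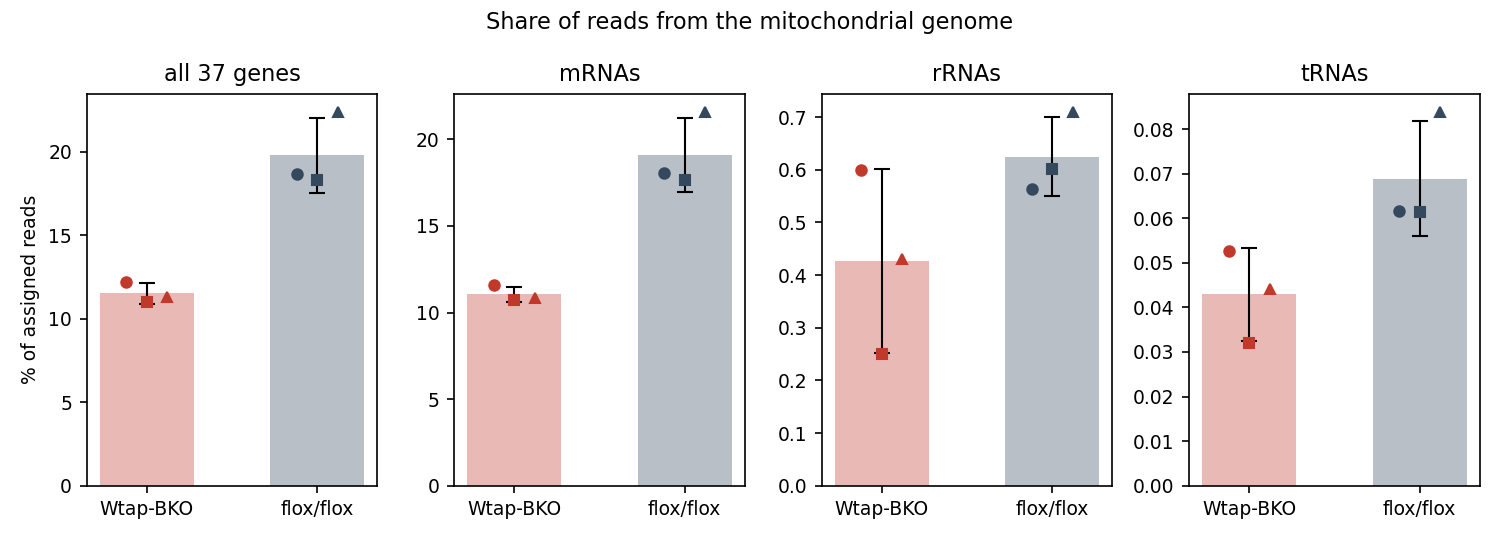
Percent of assigned reads from all 37 members, the mRNAs, the rRNAs and the tRNAs, Wtap-BKO left of flox/flox in each panel, each axis starting at 0. Bars are means with SD (n = 3), and points the libraries (circle, square and triangle for replicates 1, 2 and 3). The groups are apart in the panels for all members, mRNAs and tRNAs and overlap in the rRNA panel.

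The levels of members were also compared within a library, as the ratio to mt-Co1, which removes any shift they share. Of 29 ratios, 6 were lower in every Wtap-BKO library than in every flox/flox library, namely mt-Co2, mt-Cytb, mt-Nd4, mt-Te, mt-Tw and mt-Tm, against 0.726% of all tested genes. Another 4 were higher, namely mt-Nd1, mt-Tp, mt-Tr and mt-Ts2, against 77.4% of all tested genes. In the exact permutation test, two-sided, each of these 10 had p = 0.1, the smallest that 3 against 3 libraries can give, so no ratio could pass at 0.05. The split depended on the gene used for comparison. Relative to mt-Cytb, 1 of 29 ratios was lower without overlap, that of mt-Co2, against 0.429% of all tested genes, and 8 were higher, against 85.6%. Both mt-Co1 and mt-Cytb were themselves lower in every Wtap-BKO library, so most genes rose relative to them. The shares of all tested genes given for the ratios are thus set largely by the choice of reference. Of the 28 members with both ratios, mt-Co2 was lower and mt-Nd1, mt-Tp, mt-Tr and mt-Ts2 were higher without overlap under both. The ratios of mt-Te, mt-Tw and mt-Tm to mt-Cytb overlapped between the groups, and 5 members, mt-Nd4 among them, had log2 differences of opposite sign under the 2 references.

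The ratio of mt-Co2 to mt-Co1 was 0.498 times that of flox/flox libraries in Wtap-BKO, a log2 difference of -1.01. The nuclear copy of mt-Co2 makes this ratio, and its share of reads, uncertain. Per library, its log2 ratio averaged -6.34 ± 0.31 in Wtap-BKO and -5.34 ± 0.40 in flox/flox libraries (SD, n = 3 each). The ratio of mt-Cytb was -1.01 ± 0.07 in Wtap-BKO and -0.77 ± 0.08 in flox/flox libraries. The ratio of mt-Nd1 was -1.22 ± 0.09 in Wtap-BKO and -1.41 ± 0.08 in flox/flox libraries, so relative to mt-Co1 it was higher. The remaining 19 ratios overlapped between the groups, those of both rRNAs, mt-Nd2, mt-Nd3, mt-Nd5 and mt-Nd6 among them.

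The stretch with a nuclear copy held the lowest mRNAs. The 6 mRNAs that lie wholly inside it, mt-Co2, mt-Atp8, mt-Atp6, mt-Co3, mt-Nd3 and mt-Nd4l, reached at most 2317 FPKM in any flox/flox library, whereas the other 7 were at 4393 FPKM or more. The sources used here do not say how reads that match both places were counted, and the part of the copies in these low levels was not tested. The 6 had a median log2 change of -1.18 with 3 lower by the test, and the other 7 a median of -0.84 with 4 lower. Of all tested genes, 3.88% were lower. For the 5 members matched over nearly their whole length, the copy had 6.79% to 35.1% of the reads of the pair in a library. For mt-Co2, Gm28661 had 30.1%, 21.2% and 28.6% of the summed reads in Wtap-BKO, against 12.4%, 22.1% and 16.6% in flox/flox libraries.

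For mt-Atp6 the split ran the other way, with Gm10925 at 13.5% to 18.6% of the summed reads in Wtap-BKO against 24.6% to 28.2% in flox/flox libraries, without overlap. For mt-Co1 and mt-Nd4 the copy never exceeded 1.10%. With the reads of each pair summed, 12 members were lower, the same 12 genes, and mt-Co2 changed by -1.66 ± 0.21 (adjusted p = 0.00882) and mt-Nd3 by -1.54 ± 0.31 (adjusted p = 0.0275) on the log2 scale. Summing cannot restore reads that may have been dropped for matching both places.

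Of 57 tested nuclear genes that express or replicate the mitochondrial genome, 6 were higher and 4 lower. Together this was 17.5%, against 9.98% of all tested genes called in either direction. Of 18 genes of mitochondrial DNA transcription and replication, 1 was higher (5.56%) and 0 lower. Of all tested genes, 6.10% were higher and 3.88% lower. The 1 higher gene of this list was Tefm, a transcription elongation factor, named here after its value was seen. The list includes replication genes such as Polg, Polg2, Twnk and Primpol, and its median log2 change was -0.08. At an unadjusted p under 0.05, 2 were higher and 2 lower, against 15.7% and 13.2% of all tested genes, and voom called 0. Polrmt, the mitochondrial RNA polymerase, had 11.6, 9.90 and 9.81 FPKM in Wtap-BKO, against 9.76, 11.1 and 11.7 FPKM in flox/flox libraries (log2 change -0.06, adjusted p = 0.800). Tfam, which packages mitochondrial DNA and starts transcription, had 10.2, 10.5 and 9.97 FPKM in Wtap-BKO, against 11.7, 10.4 and 8.89 FPKM in flox/flox libraries (log2 change -0.00870, adjusted p = 0.973). For these 2 genes, named outside the rule for named genes, the groups overlapped, and no change was detected with 3 libraries each.

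Of 21 genes of mitochondrial RNA processing and tRNA maturation, 3 were higher (Mrm3, Mrm2 and, named after its value was seen, Trmt10c of RNase P) and 2 lower. Together this was 23.8%, against 9.98% of all tested genes called in either direction. Mrm3 and Mrm2, which methylate the large-subunit rRNA, changed by 0.69 ± 0.11 and 0.57 ± 0.12 on the log2 scale (adjusted p = 0.0175 and 0.0330). Mrm3 had 16.9, 13.6 and 13.7 FPKM in Wtap-BKO, against 8.98, 8.92 and 9.33 FPKM in flox/flox libraries. Mettl15, a methyltransferase of the small-subunit rRNA, had 1.66, 1.96 and 2.23 FPKM in Wtap-BKO, against 4.17, 3.67 and 3.51 FPKM in flox/flox libraries (log2 change -0.93 ± 0.15, adjusted p = 0.0163). Hsd17b10, a subunit of mitochondrial RNase P that also acts in isoleucine breakdown, averaged 79.3 ± 10.1 FPKM in Wtap-BKO and 123 ± 13.7 FPKM in flox/flox libraries (SD, n = 3 each, adjusted p = 0.0321).

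Of 18 tested genes of mitochondrial RNA stability, polyadenylation and decay, 2 were higher and 2 lower. Together this was 22.2%, against 9.98% of all tested genes called in either direction. Mtpap, the poly(A) polymerase that completes stop codons such as those of mt-Co3, mt-Nd4 and mt-Cytb, had 5.22, 5.55 and 5.55 FPKM in Wtap-BKO, against 3.53, 3.80 and 4.08 FPKM in flox/flox libraries (log2 change 0.51 ± 0.11, adjusted p = 0.0326). Ptcd2, which in mice acts on mt-Cytb RNA, rose by 0.43 ± 0.10 on the log2 scale (adjusted p = 0.0429). Pnpt1, a ribonuclease, had 7.49, 6.92 and 7.80 FPKM in Wtap-BKO, against 11.4, 11.4 and 9.75 FPKM in flox/flox libraries (log2 change -0.54 ± 0.11, adjusted p = 0.0285). Grsf1, an RNA-binding protein of mitochondrial RNA granules, averaged 35.3 ± 3.21 FPKM in Wtap-BKO and 52.7 ± 7.41 FPKM in flox/flox libraries (adjusted p = 0.0431). The groups of these 8 genes did not overlap, which is nearly ensured by choosing called genes with the smallest p. Against 10 machinery genes called with all libraries, 4, 2 and 2 were called without Wtap-BKO replicate 1, 2 and 3, and 0, 0 and 3 without flox/flox replicate 1, 2 and 3.

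Some nuclear subunits of the same complexes were lower. Of 73 tested nuclear subunits of complexes I, III, IV and V, 16 were lower (21.9%), 0 were higher and 57 were not called. Of all tested genes, 3.88% were lower and 6.10% higher. The fitted change was below 0 for 63 of the 73, against 50.4% of all tested genes. By complex, 10 of 35 were lower in complex I, 2 of 9 in complex III (Uqcrc1 and Uqcrh), 2 of 14 in complex IV (Cox5b and Cox7a1) and 2 of 15 in complex V (Atp5h and Atp5j2), all but Uqcrc1 named after their values were seen. At an unadjusted p under 0.05, 39 of the 73 were lower and 0 higher, against 13.2% and 15.7% of all tested genes. By voom 19 were lower and 0 higher, against 4.35% and 6.34% of all tested genes. The median log2 changes of the mitochondrial mRNAs were -0.95, -1.07, -0.89 and -0.75 for complexes I, III, IV and V, against -0.38, -0.43, -0.30 and -0.22 for the nuclear subunits of the same complexes, with no test of the difference between these lists.

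Ndufv1, which holds the NADH-binding site of complex I, had 211, 198 and 177 FPKM in Wtap-BKO, against 345, 346 and 319 FPKM in flox/flox libraries (log2 change -0.79 ± 0.11, adjusted p = 0.0102). Ndufb4 and Ndufs7, also of complex I, and Uqcrc1 of complex III changed by -0.55, -0.67 and -0.67 on the log2 scale (adjusted p = 0.0143, 0.0194 and 0.0193). None of these 4 had overlapping groups, but they too were chosen for a small p. Against 16 nuclear subunits called with all libraries, 12, 10 and 1 were called without Wtap-BKO replicate 1, 2 and 3, and 0, 0 and 5 without flox/flox replicate 1, 2 and 3. Scaled to library size instead of by size factors, 6 were called, and all genes split into 1115 higher and 310 lower, against 824 higher and 524 lower.

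**Figure D5:**
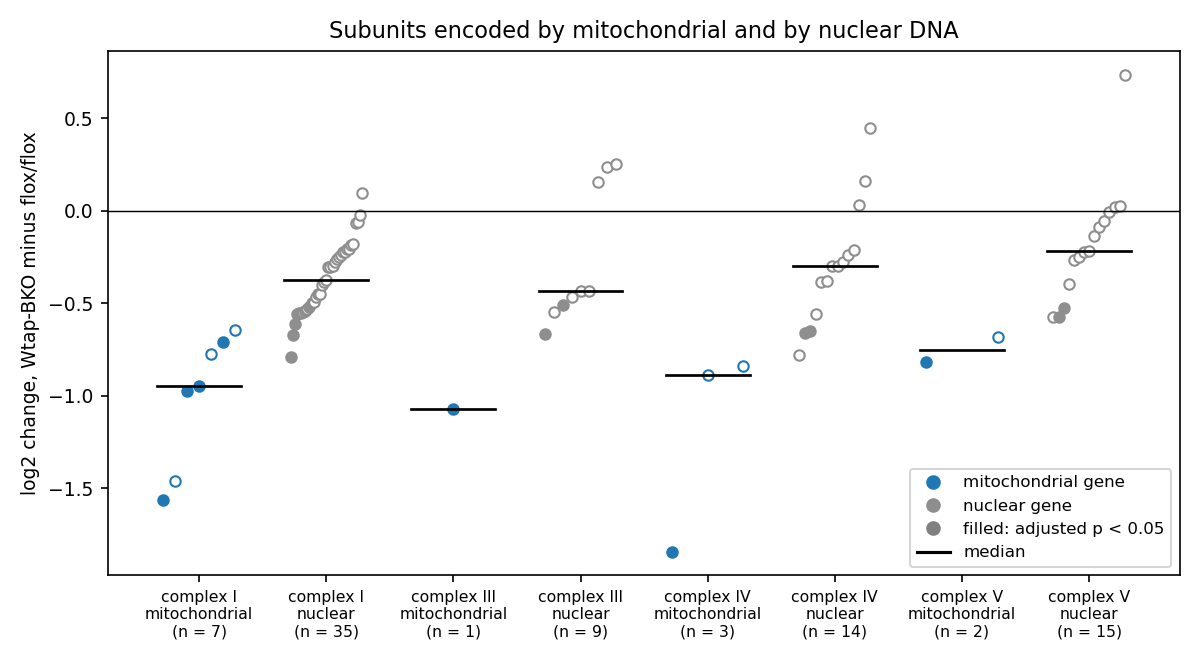
Log2 change, Wtap-BKO minus flox/flox, of each respiratory-chain subunit, for mitochondrial (blue) and nuclear (grey) genes of each complex. Filled points had an adjusted p under 0.05 and black lines are medians. All 13 mitochondrial mRNAs lie at -0.64 or lower, while the nuclear subunits run from -0.79 to 0.74.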

How the data were processed

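Total RNA of iBAT was sequenced as paired-end Illumina reads. Per the labels and the study's methods, the authors aligned reads to GRCm38.p6 with HISAT2 2.0.5 and counted them with featureCounts 1.5.0-p3; the sources used here do not state the strand setting, the handling of multi-mapping reads or rRNA removal. The authors deposited FPKM, made from gene length and a scaling equal to median-of-ratios size factors. FPKM times length gave whole reads for 100% of values above 0 (within 0.01 read). The test kept genes averaging at least 0.5 FPKM and at least 10 recovered reads a library and was run with limma 3.58.1 (R 4.3.3) on log2(FPKM + 0.1), Benjamini-Hochberg adjusted over 13507 genes, so that changes of low genes are understated. The test was tried on simulated data first. Copies were found with blastn 2.17.0 among GENCODE M21 transcripts (at least 100 aligned bases; near-identical from 99.5% identity). The members and lists were chosen with earlier results of these data known. All mRNAs and rRNAs, all tested tRNAs, and from the nuclear lists the 4 called genes with the smallest p in each direction were named. P-values measure the spread between libraries. Alternatives were scaling, filter, pseudocount, voom, robust variance, the replicate number as a block, and leaving out libraries. The deposited table was used whole, with no further sample columns.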

Additional observations from a re-analysis of the deposited data

How the results depend on the processing

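Member calls numbered 12 as reported and 9 to 16 under library size scaling, factors without mitochondrial genes, a stricter filter, pseudocounts of 1 and 0.01, voom on recovered reads, a robust variance and, added after seeing the data, summing with nuclear copies. Without a filter, 3 of 34 members were called, 687 of all genes (against 1348), 2 machinery genes (against 10) and 5 nuclear subunits (against 16); with library size scaling 6 nuclear subunits were. Leaving out one library gave 1 to 5 members, 307 to 1277 genes, 0 to 4 machinery genes and 0 to 12 nuclear subunits. Without both muscle libraries all 4 counts were 0 (2253 genes and 19 members at an unadjusted p under 0.05). With the replicate block 5 members, 308 genes, 0 machinery genes and 1 nuclear subunit were called. Deviations of same-numbered libraries correlated at -0.05, -0.40 and -0.27. Those of Wtap-BKO replicate 3 and flox/flox replicate 2, which hold muscle markers, correlated at 0.56. The muscle signal can move these correlations, so they cannot decide if the numbers pair samples. Ratios without overlap numbered 10 relative to mt-Co1 (6 lower, 4 higher) but 9 relative to mt-Cytb (1 lower, 8 higher). The change of reference moved 7 of 28 ratios by more than their spread. With a library left out, 11 to 14 ratios to mt-Co1 did not overlap. Leaving out a library cannot create overlap, so this count could not fall below 10 and is no check. The read share differed by -8.27 percentage points, -13.3 from summed FPKM and -9.00 to -6.98 with a library left out. Of all changes of members and named nuclear genes, only mt-Tr without flox/flox replicate 3 reversed, at 0.00461 (adjusted p = 0.994; -0.51 to 0.00461 with a library left out). The cause of these differences was not tested. Members under about 100 reads per library are limited by depth.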
